A study of Bubalus bubalis with 6 samples.

Results

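Long noncoding RNAs (lncRNAs) that lie against another gene were examined in subcutaneous adipose tissue of the Chinese water buffalo, as the classes that the study's lncRNA table labels antisense and bidirectional. Members were taken by that class label alone, without use of any expression value. Of 9494 lncRNA transcripts, 698 were members, with 584 antisense and 114 bidirectional lncRNAs, and the others were 6512 intergenic, 625 intronic and 1659 unclassified transcripts. The tissue was back fat of Xinyang buffaloes from a slaughterhouse, with 3 adult animals of 30 months and 3 young animals of 6 months and 1 library per animal. No genotype or treatment set the groups apart, and age was the only contrast. Total RNA was depleted of rRNA and sequenced with a protocol that keeps the strand, and the cattle genome (UMD3.1) and its annotation stood in for those of the buffalo, which limits both the assembly of lncRNAs and the pairing with genes.

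An antisense lncRNA is transcribed from the strand opposite to a gene that it overlaps, and a bidirectional lncRNA starts near the promoter of a gene and runs away from it. Some lncRNAs of both kinds are known to act on the gene beside them, by recruiting chromatin regulators, by interfering with its transcription or by pairing with its RNA, and others may be by-products of an open promoter. In adipose tissue, antisense RNAs of regulators of fat cell formation have been described. The table gives every member a target transcript, by its cattle Ensembl identifier, and the text calls this transcript the target without implying that it is regulated.

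Levels are given as FPKM (fragments scaled to transcript length and to the mapped fragments of the library), recovered from the deposited log2(FPKM + 1). FPKM is per length, and levels of different transcripts are set beside each other as listed. How well this scaling holds for the shortest transcripts was not tested. The paper reports more clean reads for the young group than for the adult group. How many reads lie behind a single value is unknown. Whether strand was used when transcripts were quantified is not given in the sources used here, so reads of an antisense lncRNA and of the gene opposite may not be told apart. Members of 1 locus are assembled transcript forms that share exons, and the split of reads among them is an estimate. A value under 0.001 FPKM is called a trace.

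Members had 470 distinct targets among antisense and 102 among bidirectional lncRNAs, 568 together, of which 4 were targets of both classes. Of the 568 targets, 491 had 1 member. The members came from 604 assembled loci. A gene symbol could be given to the target of 182 members (138 antisense and 44 bidirectional), over 153 symbols, and the other targets are called by their identifiers. A target level given under a symbol is that of 1 transcript and need not be that of the whole gene.

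Bidirectional lncRNAs were longer than antisense lncRNAs, with medians of 726.5 and 541 bases. The middle range of lengths was 326 to 1489 bases for bidirectional and 274 to 1076 for antisense lncRNAs. Both were longer than the 301.5 bases of the median intergenic lncRNA, while intronic lncRNAs had a median of 1272 bases. Under 300 bases lay 21.9% of the bidirectional and 29.6% of the antisense lncRNAs, against 49.4% of the intergenic ones, and over 2000 bases lay 21.9% and 12.7% of the members against 9.72%. The longest open reading frame had a median of 162 bases in bidirectional and 142.5 bases in antisense lncRNAs, and the coding probability given by CPAT (0 to 1) had medians of 0.0176 and 0.0243. These are descriptions of assembled models, and no test of the classes over transcripts was made.

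Members were seen more widely than most lncRNAs. Of the antisense lncRNAs, 378 (64.7%) were above 0 FPKM in all 6 libraries, and of the bidirectional lncRNAs 71 (62.3%), against 32.5% of intergenic and 41.6% of all lncRNAs. Intronic lncRNAs, at 75.5%, lay above both classes, and unclassified ones, at 54.9%, lay below them. At least 1 FPKM in every library was reached by 37.3% of antisense and 34.2% of bidirectional lncRNAs, against 24.2% of all. Intronic lncRNAs reached it in 57.3% and unclassified ones in 35.7% of cases, so bidirectional lncRNAs lay below both. The mean over 6 libraries had a median of 3.41 FPKM among antisense, 2.41 among bidirectional and 2.07 FPKM among all lncRNAs. It was 3.26 FPKM among intronic and 2.58 FPKM among unclassified lncRNAs. A mean of at least 10 FPKM was reached by 116 antisense and 9 bidirectional lncRNAs, and at least 100 FPKM by 10 and 1. Detection went along with length. Antisense lncRNAs under 300 bases were above 0 in all libraries in 19.7% of cases, those of 300 to 1000 bases in 76.6% and longer ones in 94.5%. For bidirectional lncRNAs the shares were 16.0%, 54.8% and 93.6%. The medians of mean FPKM were also higher in longer bins, with 1.53, 3.73 and 5.25 FPKM for antisense and 1.70, 1.98 and 3.26 FPKM for bidirectional lncRNAs. Only 6 members were listed at 0 in every library.

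**Figure D1:**
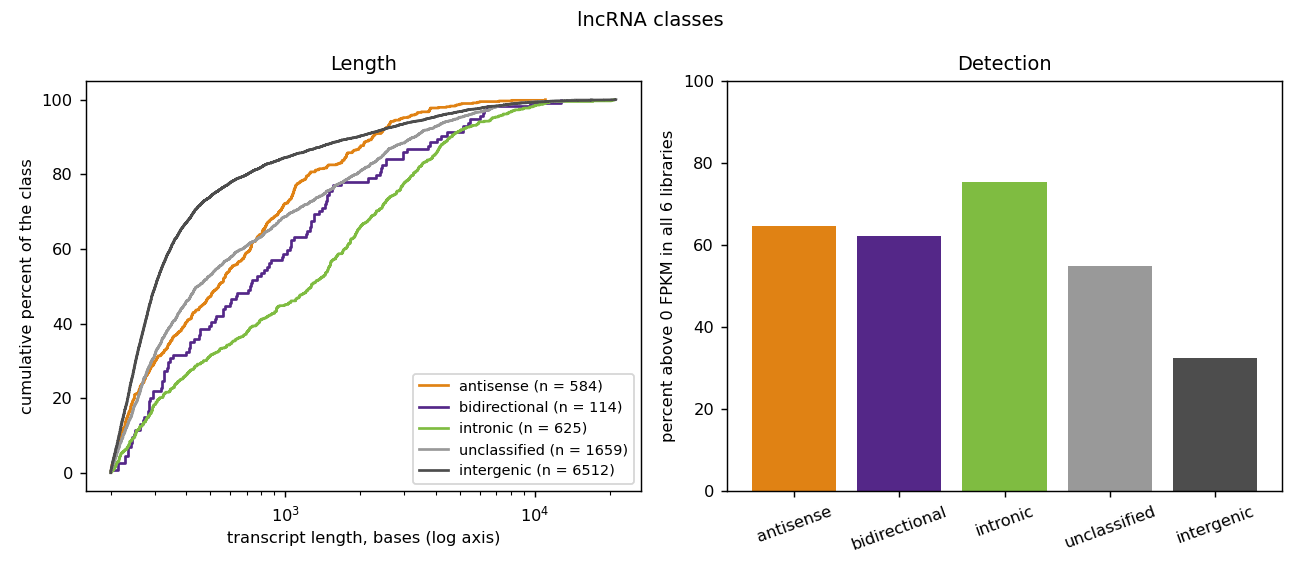
Left, cumulative percent of each lncRNA class by transcript length in bases (log axis); right, percent of each class above 0 FPKM in all 6 libraries. Antisense (median 541 bases, 64.7%) and bidirectional (726.5 bases, 62.3%) lncRNAs lie between intergenic (301.5 bases, 32.5%) and intronic lncRNAs (1272 bases, 75.5%) on both measures.

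Within a library, the median antisense lncRNA lay above the median bidirectional lncRNA in 5 of 6 libraries. The difference of log2 medians was -0.03, 0.34 and 0.63 in adult libraries 1 to 3 and 0.29, 0.72 and 0.40 in young libraries 1 to 3. Its mean was 0.39 ± 0.27 (SD, n = 6; exact sign-flip permutation test over libraries, two-sided, p = 0.0625). Among members with a mean of at least 0.1 FPKM it was 0.47, and above 0 in 6 of 6 libraries, with the smallest p that the 6 libraries allow (exact sign-flip permutation p = 0.031). That filter kept 570 of 584 antisense and all 114 bidirectional lncRNAs. It took out only low antisense lncRNAs and could only raise the difference, so the smaller p is no separate support. The percent of a class above 0 differed by 0.806 percentage points (exact sign-flip permutation p = 0.5938), so the classes could not be told apart in this.

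Fewer antisense lncRNAs were listed above 0 in adult than in young fat. They numbered 452, 474 and 469 in the adult libraries, against 507, 501 and 494 in the young libraries (465 ± 11.5 and 501 ± 6.51, SD, n = 3 each). The groups did not overlap, and the exact permutation p of 0.1 is the smallest that 3 against 3 animals can give, so no such comparison could reach 0.05. At 1 FPKM or more the numbers were 353, 393 and 383 in adult against 394, 389 and 395 in young libraries, and the groups overlapped (exact permutation p = 0.2). Bidirectional lncRNAs above 0 numbered 93, 95 and 89 in adult and 97, 94 and 92 in young libraries (exact permutation p = 0.5). By the paper the adult group had fewer clean reads, and the part of depth in these counts was not tested. The same count over all lncRNAs is not given here, so whether the lower count is particular to antisense lncRNAs is not known.

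The summed level of antisense lncRNAs was 9166, 8333 and 8096 FPKM in adult and 8116, 9247 and 10036 FPKM in young libraries, with overlap (exact permutation p = 0.4, n = 3 each). This was 19.7%, 18.2% and 16.7% of the FPKM of all lncRNAs in adult and 14%, 19.9% and 24.1% in young libraries (exact permutation p = 0.7). Young animals spread more widely in this share than adults. Bidirectional lncRNAs summed to 512, 414 and 431 FPKM in adult against 651, 811 and 746 FPKM in young libraries (452 ± 52.3 and 736 ± 80.4, SD, n = 3 each; exact permutation p = 0.1). That difference came down to 1 transcript. Without TCONS_00623040, described further on, the adult minus young difference went to 34.7 FPKM, where it was -284 FPKM with it. The median antisense lncRNA was at 2.26, 3.22 and 3.36 FPKM in adult and 2.70, 2.66 and 2.68 FPKM in young libraries, and the median bidirectional lncRNA at 2.31, 2.54 and 2.17 FPKM in adult and 2.21, 1.61 and 2.04 FPKM in young libraries (exact permutation p = 0.4 and 0.2).

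Some facts of the whole series bear on the comparison by age. FPKM over all transcripts summed to 657311 to 721755 in adult and 1093380 to 1237790 in young libraries, whereas the sums over lncRNAs overlapped. Across 684 members, pairs of adult libraries correlated at r = 0.502 to 0.565, pairs of young libraries at 0.633 to 0.68 and an adult with a young library at 0.308 to 0.503, on the log2(FPKM + 0.1) scale and as a description only. CIDEC, a lipid droplet protein of fat cells 1 of 6 adipocyte markers and the only such marker that could be named, was at 719 to 911 FPKM in adult and 191 to 858 FPKM in young libraries. Summed levels of named markers of other cells did not overlap between the ages, though single markers did. The 4 endothelial markers found of 5 summed to 274 to 325 FPKM in adult and 119 to 253 in young fat, the 2 macrophage markers found of 5 to 48.1 to 73.6 and 133 to 190, MYH11 of smooth muscle (1 of 5) was at 10.1 to 18.6 and 40.2 to 130, and THY1 of stromal cells (1 of 5) at 53.6 to 90.7 and 179 to 253. Taken singly, VWF and KDR of the endothelial markers and CD163 of the macrophage markers did not overlap, whereas PECAM1, TEK and MRC1 did. The 8 genes of fatty acid and triglyceride synthesis that carried a symbol summed to 3840 to 7700 FPKM in adult and 207 to 1920 FPKM in young fat, and the 3 of lipid uptake, storage and lipolysis to 2390 to 4470 and 294 to 1440. Not every gene of these sums followed them. LPIN1, ACSL1 and ACACB of the former and PLIN4 and CIDEC of the latter overlapped between the ages. ACACA, ELOVL5, ELOVL6, GPAM, DGAT2 and LPL were higher in every adult than in any young library. None of these markers was at 0, and markers of skeletal muscle and lymphocytes were not analysed here. Their part in the results was not tested, and in such tissue samples a change in the number of cells of a type and in RNA per cell cannot be told apart.

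Age was tested for every lncRNA at once, with limma on log2(FPKM + 0.1), adult minus young, over the 9155 lncRNAs with a mean of at least 0.1 FPKM, and p-values were adjusted by Benjamini-Hochberg over all of them, with a call under 0.05. A fold change on this scale understates the change of low transcripts and, where a group holds only traces, depends on the added 0.1. Of 570 antisense lncRNAs tested, 10 were higher and 12 lower in adults (3.86%), and of 114 bidirectional lncRNAs 1 was higher and 2 lower (2.63%). Over all lncRNAs 1.44% were called, 0.776% higher and 0.666% lower. The difference between these shares was not tested. At an unadjusted p under 0.05 by limma there were 69 higher and 72 lower antisense and 17 and 14 bidirectional lncRNAs. Over all 9155 lncRNAs tested, 877 were higher and 678 lower at that threshold.

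All 25 called members had no overlap between the age groups. Without overlap were also 28.8% of all antisense lncRNAs tested, with 83 above and 81 below the young libraries in adults, and 34.2% of the bidirectional ones, with 17 above and 22 below, beside 23% of all lncRNAs. The median log2 fold change was 0.14 for antisense and 0.19 for bidirectional lncRNAs, against 0.43 for all lncRNAs tested. The quartiles of the antisense lncRNAs were -1.41 and 1.72, so that single members differed by far more than the class did. Directions depended on how libraries were scaled. With all libraries brought to the same FPKM total over all transcripts, the median of all lncRNAs moved to 1.02 and 66 members were higher and 14 lower. After quantile normalization it was 0.04, and 7 members were higher and 26 lower. Of the 25 calls, 24 and 21 were kept under these settings. No call held without each of the 6 libraries in turn. Such a fit has 5 libraries and less power, so a lost call does not show that it rested on 1 animal. Without adult library 1, 2 or 3 there were 4 members called each time, all lower, without young library 1 there was none by limma (128 at an unadjusted p under 0.05), without young library 2 there was 1, and without young library 3 there were 3.

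**Figure D2:**
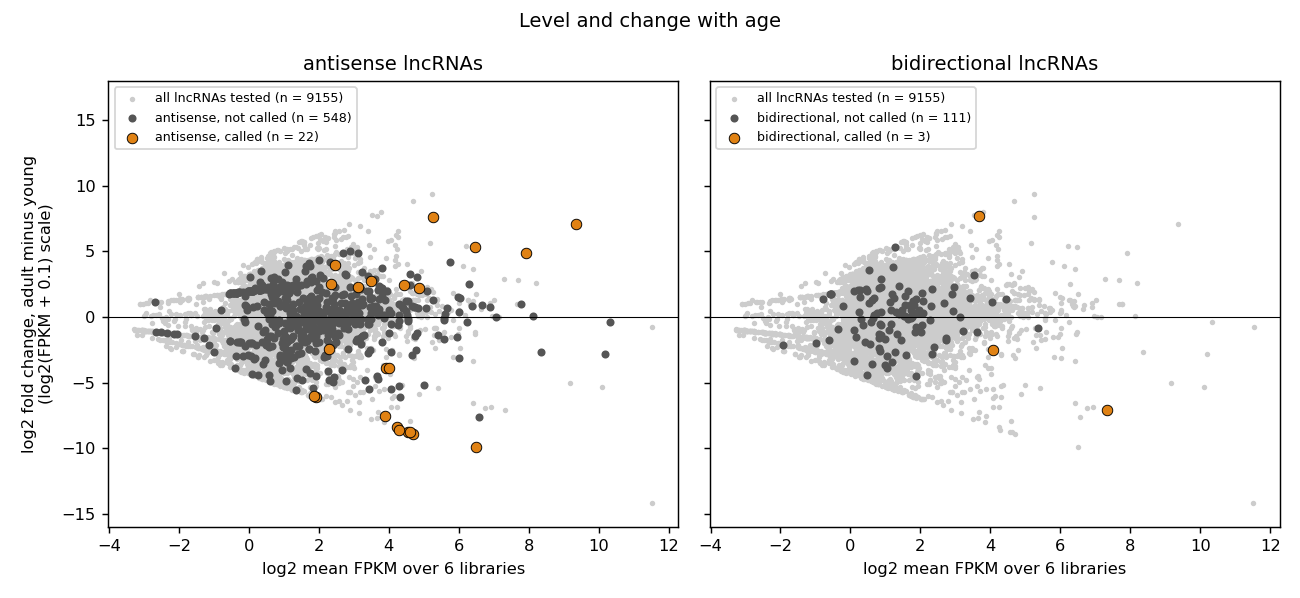
Log2 fold change of each lncRNA, adult minus young on the log2(FPKM + 0.1) scale, against its log2 mean FPKM over 6 libraries, for antisense (left) and bidirectional lncRNAs (right), with all 9155 lncRNAs tested in grey. The 22 antisense and 3 bidirectional lncRNAs called stand out in orange, and called members lie on both sides of 0.

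The members that fell in adults were short, and most of them held only traces in adult fat. The 14 called lower were 228 to 633 bases long with a median of 334.5, and 9 of them, all antisense, were under 0.001 FPKM in every adult library. By a wider count with no test, 12 antisense and 1 bidirectional lncRNA were under 0.1 FPKM in every adult library and at 1 FPKM or more in every young library, a pattern of 1.27% of all 9494 lncRNAs. The reverse pattern was seen in 2 bidirectional and no antisense lncRNAs, against 0.6% of all.

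TCONS_00540677, an antisense lncRNA of 236 bases, was a trace in all adult libraries and at 31.9, 40.0 and 45.2 FPKM in the young libraries (log2 fold change -8.60, SE 0.58, adjusted p = 0.000283 by limma). Its target, ENSBTAT00000006689, was at 29.1, 31.1 and 18.4 FPKM in adult and 29.4, 27.2 and 35.6 FPKM in young libraries and did not pass. This lncRNA was thus hardly detected in adult fat and about as abundant as the transcript opposite in young fat. The call held without any 1 adult library (adjusted p = 0.00961 to 0.0183) and was lost without any 1 young library (0.0703 to 0.153).

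TCONS_00202481 and TCONS_00202483, of 399 and 342 bases, are forms of 1 locus opposite ENSBTAT00000021893. Both held only traces or 0 in the adult libraries. In the young libraries TCONS_00202481 was at 59.2, 28.1 and 53.3 FPKM (limma adjusted p = 0.000283, log2 fold change -8.80, SE 0.59) and TCONS_00202483 at 25.5, 65.5 and 23.0 FPKM (-8.40, SE 0.68, adjusted p = 0.000746). Young library 2 was low in 1 form and high in the other, and their sum was steadier, at 84.7, 93.6 and 76.3 FPKM. Their target also fell in adults, but by far less, with 9.54, 9.89 and 10.9 FPKM in adult against 18.7, 20.7 and 18.6 FPKM in young libraries (log2 fold change -0.87 on log2(FPKM + 1), limma adjusted p = 0.0418).

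TCONS_00473351, of 579 bases, held traces in adults and 31.6, 60.6 and 63.2 FPKM in young libraries (log2 fold change -8.95, SE 0.57, adjusted p = 0.000283 by limma). A second form of its locus, TCONS_00473350 of 813 bases, was at 2.57, 5.97 and 8.75 FPKM in adult and 47.1, 0.404 and under 0.001 FPKM in young libraries and did not pass (adjusted p = 0.551). The sum of both was 5.76 ± 3.1 FPKM in adult and 67.6 ± 9.58 FPKM in young libraries, without overlap (SD, n = 3 each; exact permutation p = 0.1). Their target, ENSBTAT00000037527, was at 97.6, 103 and 106 FPKM in adult and 80.6, 69.9 and 85.0 FPKM in young libraries and was not called (adjusted p = 0.271).

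TCONS_00663363, of 633 bases, showed how much rests on the split between forms. It held traces in adults and 41.2, 23.1 and 82.0 FPKM in young libraries (log2 fold change -8.74, SE 0.65, adjusted p = 0.000504 by limma). The other form of the locus, TCONS_00663364 of 892 bases, was at 102, 104 and 59.8 FPKM in adult and 36.3, 9.88 and 85.3 FPKM in young libraries (log2 fold change 1.45, adjusted p = 0.336). Summed, the locus was at 88.7 ± 25 FPKM in adult and 92.6 ± 68.4 FPKM in young libraries (SD, n = 3 each; exact permutation p = 1.0), so the call concerns 1 form and not the locus.

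TCONS_00306240, of 303 bases, had the largest fitted change of all called members (log2 fold change -9.92, SE 1.07, adjusted p = 0.0032 by limma). It was listed at 0, 0 and a trace in adult and at 299, 234 and 12.9 FPKM in young libraries, so young library 3 was far below the other young ones. Its target, ENSBTAT00000030444, showed the same library as low, with 9.83, 8.17 and 10.7 FPKM in adult and 104, 60.5 and 7.82 FPKM in young libraries (adjusted p = 0.248). The call of the lncRNA held without young library 3 (adjusted p = 0.00727) and was lost in every other such fit (0.152 to 0.222).

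A further 3 antisense lncRNAs were seen in young fat only. TCONS_00627887 of 228 bases held traces in adult and 19.5, 63.9 and 5.13 FPKM in young libraries (adjusted p = 0.0133), and TCONS_00285214 of 404 bases held traces in adult and 13, 5.35 and 4.49 FPKM in young libraries (adjusted p = 0.0405), both by limma. TCONS_00476166 of 228 bases was listed at 0 in all adult libraries and at 3.43, 5.71 and 12.9 FPKM in young ones (limma adjusted p = 0.0472). The targets of these lncRNAs were expressed at both ages, as with ENSBTAT00000019992, the target of TCONS_00627887, at 65.3, 65.8 and 67.6 FPKM in adult and 58.9, 90.0 and 87.2 FPKM in young libraries.

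The other antisense lncRNAs that fell were present at both ages. TCONS_00590237, of 300 bases, lies opposite GARS, the glycyl-tRNA synthetase that charges tRNA with glycine. It was at 0.703, 3.65 and 2.26 FPKM in adult and 18.4, 45.8 and 25.8 FPKM in young libraries (log2 fold change -3.86, SE 0.60, adjusted p = 0.023 by limma). GARS itself was at 40.3, 32.9 and 33.3 FPKM in adult and 12.2, 20.4 and 20.4 FPKM in young libraries, without overlap but not called (log2 fold change 1.00, adjusted p = 0.0701). The remaining 2 were TCONS_00287447 (366 bases), at 1.47, 1.96 and 1.61 FPKM in adult and 20.3, 49.3 and 16.4 FPKM in young libraries (adjusted p = 0.00563), and TCONS_00282495 (327 bases), at 1.75, 1.30 and 1.13 FPKM in adult and 5.69, 7.42 and 11.8 FPKM in young libraries (adjusted p = 0.0472).

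**Figure D3:**
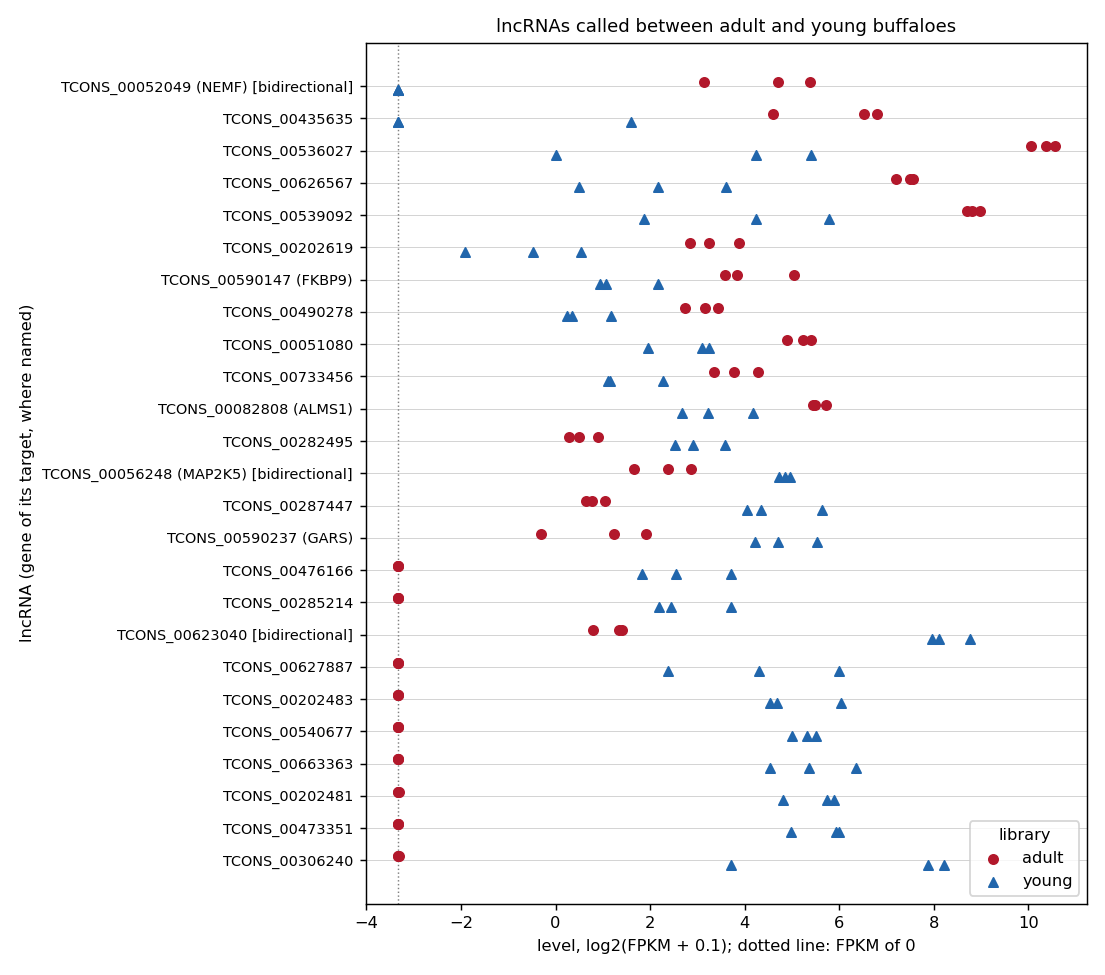
Level of the 25 called members as log2(FPKM + 0.1) in each of the 3 adult (circles) and 3 young libraries (triangles), ordered by fold change with the highest in adults at the top. The groups overlap in none of them, and the adult libraries of 9 members lie at the dotted line, which marks 0 FPKM.

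The antisense lncRNAs that rose in adults were expressed at both ages, with 1 exception, and were longer, with lengths of 234 to 3381 bases and a median of 888.5. Their log2 fold changes were 2.18 to 7.66. Young library 2 was the lowest young library for 6 of the 11 members called higher.

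TCONS_00536027, of 576 bases, was among the most abundant members. It was at 1504, 1330 and 1065 FPKM in adult and 18.9, 0.910 and 42.5 FPKM in young libraries (log2 fold change 7.10, SE 1.17, adjusted p = 0.0301 by limma). Its target, ENSBTAT00000015490, was higher still, at 8221, 8530 and 7656 FPKM in adult and 494, 29.6 and 1255 FPKM in young libraries, though it did not pass (log2 fold change 4.93, adjusted p = 0.0672). In both, young library 2 was lowest and young library 3 highest of the young. A second form of the locus, TCONS_00536028, which the table leaves unclassified, went the other way, with traces in adult and 39.4, 3.58 and 103 FPKM in young libraries (log2 fold change -7.94, adjusted p = 0.0196).

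TCONS_00539092, of 2154 bases, was at 506, 417 and 451 FPKM in adult and 18.9, 3.55 and 55.3 FPKM in young libraries (log2 fold change 4.87, SE 0.84, adjusted p = 0.0345 by limma). In contrast to the previous pair, its target ENSBTAT00000024209 was level, with 30.5, 32.6 and 25.9 FPKM in adult and 29.7, 42.2 and 59.1 FPKM in young libraries (log2 fold change -0.49, adjusted p = 0.348). The lncRNA was above its target in every adult library and below it in every young library.

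TCONS_00626567, of 234 bases, was at 188, 147 and 182 FPKM in adult and 4.41, 1.30 and 12 FPKM in young libraries (log2 fold change 5.33, SE 0.67, adjusted p = 0.0078 by limma). Its target ENSBTAT00000063243 was at 40.7, 45.2 and 30.5 FPKM in adult and 22.3, 17.6 and 33.4 FPKM in young libraries and was not called (adjusted p = 0.225). All 4 lncRNAs of this target summed to 279 ± 64.2 FPKM in adult and 32.9 ± 49.2 FPKM in young libraries, without overlap (SD, n = 3 each; exact permutation p = 0.1).

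TCONS_00435635, of 370 bases, was the exception, hardly detected in young fat. It was at 91.8, 111 and 24.3 FPKM in adult libraries, and at 2.92 FPKM, a trace and 0 in young libraries (log2 fold change 7.66, SE 1.25, adjusted p = 0.0301 by limma). Its target, ENSBTAT00000031167, was at 16.7, 28.9 and 54.4 FPKM in adult and 142, 49.7 and 46.4 FPKM in young libraries (adjusted p = 0.266). TCONS_00435634, a form of the same assembled locus that is paired with ENSBTAT00000011795, lay the other way, at 91.1, 110 and 45.7 FPKM in adult and 997, 272 and 451 FPKM in young libraries, without overlap but not called (log2 fold change -2.68, SE 0.63, adjusted p = 0.0765).

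Of the members that rose together with their target, TCONS_00490278 (1001 bases) was at 6.57, 10.8 and 8.85 FPKM in adult and 1.17, 2.16 and 1.09 FPKM in young libraries (log2 fold change 2.52, limma adjusted p = 0.0407). Its target ENSBTAT00000018304 was at 199, 109 and 87.2 FPKM in adult and 8.30, 8.05 and 30.7 FPKM in young libraries (3.17, adjusted p = 0.0228). TCONS_00733456 (3167 bases) was at 10.1, 19.3 and 13.6 FPKM in adult and 2.12, 2.05 and 4.72 FPKM in young libraries (2.29, adjusted p = 0.0478), with its target ENSBTAT00000064909 at 44.5, 42.5 and 30.0 FPKM in adult and 6.00, 7.91 and 14.7 FPKM in young libraries (1.99, adjusted p = 0.0223). In both pairs the lncRNA stayed below its target in every library. A second form of the locus of TCONS_00733456, TCONS_00733453 (1463 bases), was at 1.77, 5.02 and 0.583 FPKM in adult and 1.65, 0.911 and 5.03 FPKM in young libraries. That form did not pass (-0.16, limma adjusted p = 0.928). TCONS_00202619 (841 bases), at 9.45, 14.6 and 7.05 FPKM in adult and 1.35, 0.166 and 0.617 FPKM in young libraries (3.94, adjusted p = 0.0387), had a target, ENSBTAT00000016645, with a similar fold change that did not pass (3.39, adjusted p = 0.0525).

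Other members rose where their target did not pass. TCONS_00590147 (936 bases) lies opposite FKBP9, a peptidyl-prolyl isomerase of the endoplasmic reticulum, and was at 33.0, 14.3 and 11.8 FPKM in adult and 2.00, 4.39 and 1.81 FPKM in young libraries (log2 fold change 2.76, SE 0.51, adjusted p = 0.0407 by limma). TCONS_00082808 (353 bases) lies opposite ALMS1, a protein of centrosomes and cilia whose loss causes a human syndrome with obesity, and was at 44.5, 52.5 and 43.3 FPKM in adult and 9.30, 18 and 6.31 FPKM in young libraries (2.18, SE 0.40, adjusted p = 0.0407). ALMS1 itself was at 13, 12.2 and 15.5 FPKM in adult and 16.4, 20.9 and 18.6 FPKM in young libraries (-0.42, adjusted p = 0.273), so the lncRNA was above it in every adult library. TCONS_00051080 (3381 bases), the longest called member, was at 37.4, 42.0 and 29.9 FPKM in adult and 9.41, 3.76 and 8.52 FPKM in young libraries (2.41, SE 0.40, adjusted p = 0.0302), and its target ENSBTAT00000016346 was higher and level (0.22, adjusted p = 0.581).

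Among bidirectional lncRNAs, TCONS_00623040 of 284 bases had the smallest p of any member. It was at 1.64, 2.42 and 2.56 FPKM in adult and 250, 436 and 276 FPKM in young libraries (log2 fold change -7.10, SE 0.34, adjusted p = 8e-05 by limma). Its target, ENSBTAT00000012550, was at 9.56, 13.5 and 11.4 FPKM in adult and 8.36, 8.96 and 8.40 FPKM in young libraries and was not called (adjusted p = 0.341). The lncRNA was thus below its target in every adult library and far above it in every young library. The call was lost only without young library 1 (adjusted p = 0.0642) and held without any other library, with an adjusted p of 0.0228 to 0.0483.

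TCONS_00056248, of 564 bases, is paired with MAP2K5, the kinase that activates ERK5. It was at 3.07, 7.23 and 5.10 FPKM in adult and 28.9, 26.5 and 31.2 FPKM in young libraries (log2 fold change -2.55, SE 0.37, adjusted p = 0.0183 by limma). MAP2K5 was at 11.9, 10.7 and 16.3 FPKM in adult and 6.54, 6.30 and 5.28 FPKM in young libraries, without overlap and not called (0.98, adjusted p = 0.0578). As with GARS, the lncRNA lay lower and the target higher in every adult library.

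TCONS_00052049, of 285 bases, is paired with NEMF, a factor of the quality control of stalled ribosomes. It was at 41.4, 8.77 and 26.1 FPKM in adult libraries and listed at 0 in all young libraries (limma adjusted p = 0.0032). The NEMF transcript was listed the same way, at 12.6, 13.7 and 13.4 FPKM in adult and 0 in all young libraries (adjusted p = 0.000122), so no fold is given for either. A 0 in such a table can be a failed estimate, and the pair is described only as listed at 0. CD38, an enzyme that breaks down NAD, was the target of the other bidirectional lncRNA of adult fat alone, TCONS_00663700 (337 bases), at 4.96, 8.04 and 1.56 FPKM in adult libraries and 0 in young libraries, which did not pass (adjusted p = 0.0907).

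The most abundant members that were not called included TCONS_00324029, of 1071 bases, opposite COL3A1, a fibrillar collagen of connective tissue. It was at 1295, 884 and 1064 FPKM in adult and 695, 2153 and 1664 FPKM in young libraries (log2 fold change -0.34, limma adjusted p = 0.873). COL3A1 was at 1060, 797 and 625 FPKM in adult and 537, 1421 and 1280 FPKM in young libraries, with young library 1 lowest in both. The lncRNA was thus listed above the collagen transcript in every library.

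TCONS_00800116 (339 bases) had no overlap between the ages, at 297, 290 and 281 FPKM in adult and 1637, 1939 and 2548 FPKM in young libraries, and yet was not called (log2 fold change -2.80, SE 0.87, adjusted p = 0.154 by limma). The adjusted p was 0.00031 with robust moderation and 0.00664 with a pseudocount of 0.01, and it stayed above 0.05 under the other settings. TCONS_00662522 (262 bases), at 577, 193 and 91.4 FPKM in adult and 72.9, 247 and 502 FPKM in young libraries, varied as much within an age as between ages (log2 fold change 0.06, adjusted p = 0.973). Among abundant bidirectional lncRNAs, TCONS_00475753 (229 bases) was at 44.9, 13.6 and 34.7 FPKM in adult and 60.9, 33.8 and 59.4 FPKM in young libraries (adjusted p = 0.413), and TCONS_00684336 (846 bases) at 26, 32.5 and 10.7 FPKM in adult and 10.6, 6.33 and 12.1 FPKM in young libraries (adjusted p = 0.252). TCONS_00225890 (2950 bases) is paired with PM20D1, a secreted enzyme that in mice makes N-acyl amino acids in fat. It was at 45.0, 24.3 and 18.1 FPKM in adult and 3.48, 10.1 and 29.7 FPKM in young libraries (log2 fold change 1.40, adjusted p = 0.356).

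The longest antisense lncRNA, TCONS_00014575 of 11013 bases opposite the phospholipid scramblase gene PLSCR4, was at 15.8, 10.2 and 11.4 FPKM in adult and 6.17, 5.94 and 6.93 FPKM in young libraries, without overlap and not called (log2 fold change 0.94, SE 0.32, adjusted p = 0.182 by limma). The longest bidirectional lncRNA, TCONS_00439873 of 12765 bases, was at 5.68, 2.59 and 3.80 FPKM in adult and 2.20, 2.18 and 3.44 FPKM in young libraries (0.57, adjusted p = 0.551). The shortest of each class, TCONS_00285790 of 200 bases and TCONS_00082641 of 202 bases, were above a trace in 1 library each, at 6.23 FPKM in young library 2 and 10.6 FPKM in adult library 1.

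The targets were then tested in their own right, on log2(FPKM + 1) over 44011 transcripts with a mean of at least 0.5 FPKM. Of 411 tested targets of antisense lncRNAs, 27 were higher and 13 lower in adults (9.73%), and of 90 targets of bidirectional lncRNAs 3 were higher and 2 lower (5.56%). Over all transcripts 5.44% were called (2.77% higher and 2.67% lower), and over the 14994 with an Ensembl name, the kind that targets are, 10.9%. The share called among targets of antisense lncRNAs was therefore close to that of annotated transcripts in general, and that of bidirectional lncRNAs, with 5 called, lay below it, which was not tested. Leaving out a library left 0 to 23 higher and 1 to 11 lower targets of antisense lncRNAs, with none higher by limma without adult library 2 (62 at an unadjusted p under 0.05) and 23 without young library 3. Of the 11 members called higher, 3 had a called target, and of the 14 called lower, 2. Those 2 were TCONS_00202481 and TCONS_00202483, forms of 1 locus with the same target. The changes of a lncRNA and of its target come from the same libraries, so each is given with its own values only.

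Most members were less abundant than their target. The mean FPKM of the lncRNA exceeded that of the target for 166 of 581 antisense and 24 of 111 bidirectional lncRNAs with a target in the table. The lncRNA was above its target in every library in 42 and 7 cases and below it in every library in 321 and 67. The median log2 ratio of lncRNA to target was -2.15 for antisense and -2.51 for bidirectional lncRNAs. By library it was -2.31, -2.16 and -2.24 in adult and -2.11, -1.87 and -2.22 in young libraries for antisense lncRNAs, with overlap (exact permutation p = 0.2, n = 3 each).

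A ratio is taken within a library and, beyond the added 0.1, does not depend on how libraries are scaled to each other. The log2 ratio of lncRNA to target was tested by limma over 1237 lncRNAs of any class with a target, a test added after the data had been seen. The ratio was higher in adults for 14 and lower for 26 of 545 antisense lncRNAs (7.34%), and higher for 2 and lower for 5 of 106 bidirectional lncRNAs (6.6%), against 5.82% called over all pairs. Of the 25 called members, 7 of the 11 higher and 12 of the 14 lower had a called ratio. The ratio holds the same lncRNA values as the call, so this overlap is no separate support for the calls. Without adult library 1 or 3 the ratio was called higher for 1 antisense lncRNA, and leaving out any library left none of the 2 bidirectional ones (8 to 13 at an unadjusted p under 0.05). The lower ratios of antisense lncRNAs were 11 without adult library 1 or young library 1, 12 without young library 2, 13 without young library 3, 14 without adult library 3 and 25 without adult library 2.

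The ratio of TCONS_00623040 to its target fell by 7.5 on the log2 scale in adults (SE 0.38, adjusted p = 0.000592 by limma), and that of TCONS_00056248 to MAP2K5 by 3.62 (SE 0.47, adjusted p = 0.0191). The ratio of TCONS_00590237 to GARS fell by 4.90 (SE 0.71, adjusted p = 0.0237). TCONS_00435634, not called by its level, had a ratio to ENSBTAT00000011795 that fell by 3.1 (SE 0.46, adjusted p = 0.0259). Of the ratios that rose, that of TCONS_00539092 gained 5.37 (SE 0.95, adjusted p = 0.0394) and that of TCONS_00082808 to ALMS1 2.63 (SE 0.46, adjusted p = 0.0373). The ratio of TCONS_00536027 rose by 2.16 (SE 0.32, adjusted p = 0.0261) beside the higher level of its abundant target in adults.

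In some pairs the target was called and the lncRNA was not. TCONS_00330519 (241 bases), chosen after its values were seen, was level at 38.3, 12 and 12.9 FPKM in adult and 9.11, 17.8 and 28.7 FPKM in young libraries (limma adjusted p = 0.909). Its target ENSBTAT00000002228 was at 0.475 FPKM, 1.40 FPKM and a trace in adult and at 30.7, 25.7 and 45.6 FPKM in young libraries (adjusted p = 0.0013), and the ratio rose by 6.34 (adjusted p = 0.0388). TCONS_00588497 and TCONS_00588495, a bidirectional pair of forms chosen likewise, were each lower in every adult than in any young library without being called, their target ENSBTAT00000017525 was higher at 30.5, 25 and 26.8 FPKM in adult and 8.5, 6.94 and 12.3 FPKM in young libraries (adjusted p = 0.0198), and both ratios fell (adjusted p = 0.03 and 0.0439).

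**Figure D4:**
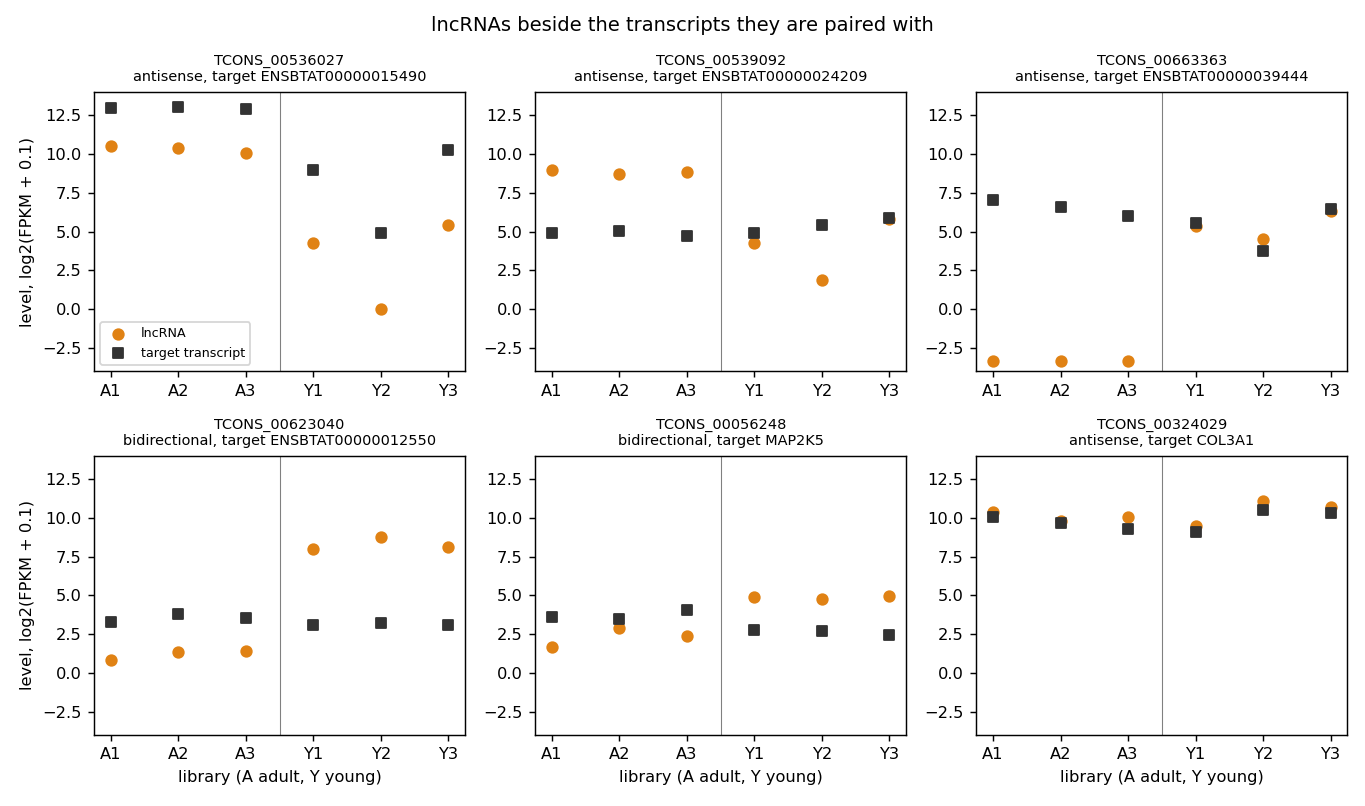
Level of 6 lncRNAs (orange circles) and of the target of each (black squares) as log2(FPKM + 0.1), in adult libraries A1 to A3 and young libraries Y1 to Y3. TCONS_00536027 and its target are both high in adults, TCONS_00539092, TCONS_00663363 and TCONS_00623040 change beside a target that was not called, TCONS_00056248 and MAP2K5 lie in opposite directions, and TCONS_00324029 stays close to COL3A1.

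Several members shared a target, and their levels were summed there. FKBP9 had 10 antisense lncRNAs of 936 to 1132 bases, all of 1 locus. Their sum was 68.5, 68.2 and 59.4 FPKM in adult and 43.6, 87.6 and 62.6 FPKM in young libraries (65.3 ± 5.19 and 64.6 ± 22.0, SD, n = 3 each; exact permutation p = 1.0). TCONS_00590147 was the only member of the 10 that was called, and the sum of the locus was alike at both ages. Other forms changed places from library to library, such as TCONS_00590155, at 0.126, 28.5 and 3.39 FPKM in adult and 7.14, 46.2 and 16.1 FPKM in young libraries, and TCONS_00590156, at 22.6, 0.00310 and 40.6 FPKM in adult and 15.0, 7.04 and 10.3 FPKM in young libraries. The split among forms this alike in length was therefore less steady than their sum in adults.

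ENSBTAT00000031167 had the most members, with 13 antisense lncRNAs of 3 loci and 276 to 1214 bases. Their sum was 102, 138 and 101 FPKM in adult and 32.8, 178 and 56.0 FPKM in young libraries, with overlap (113 ± 21.1 and 89.1 ± 78.2, SD, n = 3 each; exact permutation p = 0.6). TCONS_00435635, called by itself, made up 91.8, 111 and 24.3 FPKM of the adult sums. When the lncRNAs of each target were summed before the test, 5 antisense targets had a higher sum in adults, against the 10 single lncRNAs, a setting added after the data had been seen.

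**Figure D5:**
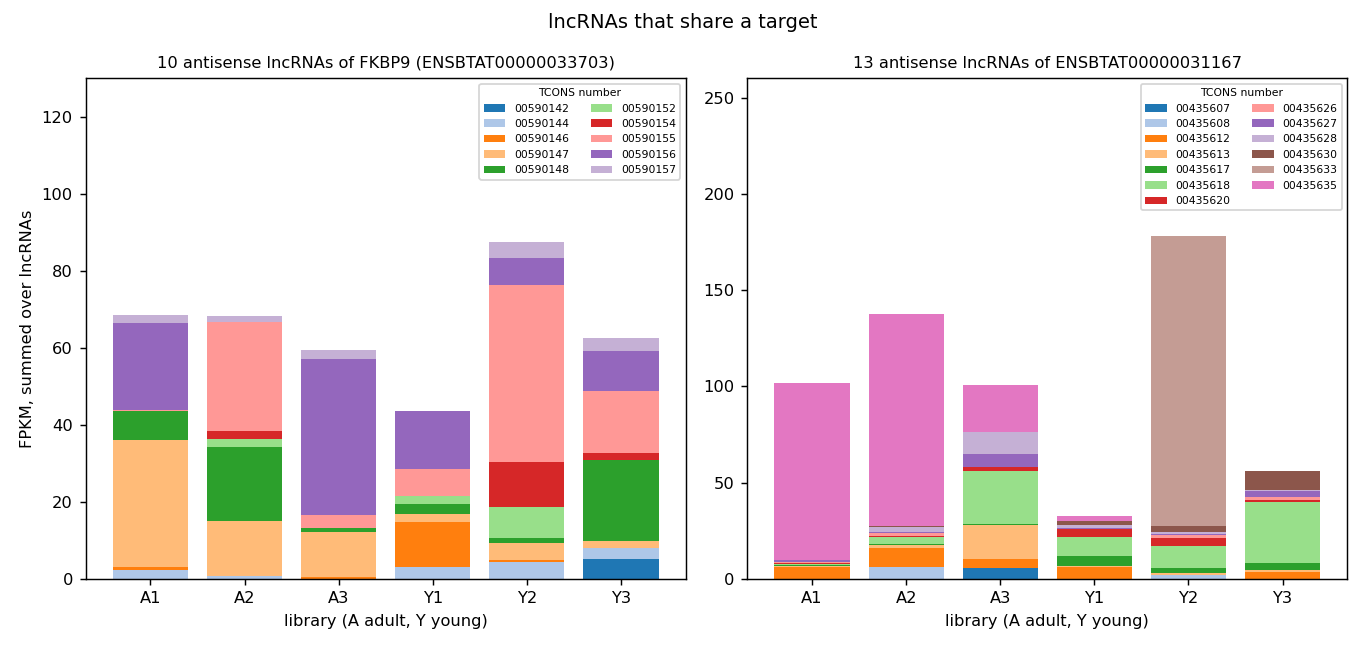
FPKM of each antisense lncRNA of FKBP9 (left, 10 lncRNAs) and of ENSBTAT00000031167 (right, 13 lncRNAs), stacked by library, for adult libraries A1 to A3 and young libraries Y1 to Y3. For FKBP9 the height of the stack is alike in the 3 adult libraries while its make-up is not, and for ENSBTAT00000031167 young library 2 is the highest and young library 1 the lowest.

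Few members were paired with known genes of fat metabolism or fat cell formation, as far as symbols were at hand. Members had a target in 1 of 16 listed genes of fatty acid and triglyceride synthesis, none of 10 of cholesterol synthesis, 1 of 11 of lipid uptake, storage and lipolysis, 2 of 18 adipogenic regulators, and none of 8 imprinted or antisense paired loci and 20 HOX and developmental factors. Of these lists only 8, 4, 3, 5, 2 and 1 genes carried a symbol at all. None of the 4 members concerned was called.

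TCONS_00435067 (7172 bases) lies opposite ELOVL5, which elongates polyunsaturated fatty acids, and was at 21.3, 12.7 and 13.7 FPKM in adult and 4.38, 2.85 and 14.3 FPKM in young libraries (log2 fold change 1.44, SE 0.57, adjusted p = 0.238 by limma). ELOVL5 itself rose, with 190, 238 and 145 FPKM in adult and 29.5, 31.3 and 59.0 FPKM in young libraries (2.27, adjusted p = 0.0123), and young library 3 was the highest young library in both. TCONS_00692274 (272 bases), opposite the lipid droplet protein gene PLIN4, was at 21.5, 15.6 and 9.12 FPKM in adult libraries and at 2.98 FPKM, a trace and 7.33 FPKM in young libraries, without overlap (3.47, SE 1.35, adjusted p = 0.234). PLIN4 was at 488, 453 and 272 FPKM in adult and 278, 45.6 and 247 FPKM in young libraries, so the young library with a trace of the lncRNA was also lowest in the gene.

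TCONS_00728037 (541 bases) lies opposite EBF2, a transcription factor of fat cell precursors and, in mice, of brown fat identity. It was at 5.12, 3.41 and 4.49 FPKM in adult and 0.302, 0.614 and 1.94 FPKM in young libraries, without overlap (log2 fold change 2.39, SE 0.75, adjusted p = 0.158 by limma), while EBF2 was at 15.3, 18.2 and 15.9 FPKM in adult and 25.5, 12.6 and 26.1 FPKM in young libraries. TCONS_00277717 (236 bases), opposite ZNF423, a regulator of fat cell commitment, was seen in adult library 1 alone, at 6.56 FPKM.

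Further pairs were picked by gene name after their values were seen. TCONS_00092406 (249 bases), opposite RXRA, the partner receptor of PPARG, was steady at 142, 111 and 145 FPKM in adult and 99.0, 181 and 119 FPKM in young libraries (log2 fold change 0.03, SE 0.43, adjusted p = 0.967 by limma). The RXRA transcript was lower, at 26.7, 22.8 and 16.8 FPKM in adult and 17.3, 24.4 and 19.0 FPKM in young libraries. This lncRNA was thus listed above that transcript in every library. TCONS_00117213 (831 bases), opposite the basement membrane collagen COL4A1, was at 20.8, 10.2 and 18.3 FPKM in adult and 3.58, 2.19 and 7.70 FPKM in young libraries and was not called (1.97, adjusted p = 0.0966). TCONS_00561337 (3743 bases), paired with SLC16A1, a carrier of lactate and other monocarboxylates, was at 5.05, 6.02 and 4.80 FPKM in adult and 2.92, 1.44 and 1.90 FPKM in young libraries (1.35, adjusted p = 0.182).

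TCONS_00588344 (613 bases), opposite PDK4, the kinase that shuts off pyruvate dehydrogenase, was seen in some animals of each age only. It was at 70.6 FPKM, a trace and 45.7 FPKM in adult libraries and at traces and 52.8 FPKM in young libraries, and PDK4 was high in young library 3 too, at 657, 518 and 474 FPKM in adult and 485, 430 and 1941 FPKM in young libraries (adjusted p of the lncRNA 0.551). TCONS_00304231 (281 bases), opposite the clock gene PER1, was listed at 0 in adult and at 3.40, 1.61 and 4.18 FPKM in young libraries. It was not called by its level (adjusted p = 0.121), whereas PER1 was at 26, 24.9 and 28.7 FPKM in adult and 21.6, 31.1 and 35.8 FPKM in young libraries.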

How the data were processed

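RNA of subcutaneous adipose tissue was measured in 6 buffalo libraries, 3 adult and 3 young, 1 per animal, and groups and replicate numbers came from the sample labels. The authors trimmed reads with Trim Galore and used the cattle UMD3.1 genome with its Ensembl annotation, and the submitters' processing notes also name TopHat2 2.0.14 and Cufflinks without their roles. The deposited log2 values are log2(FPKM + 1) per transcript and library. The lncRNA class, target and length come from the deposited lncRNA table, in which the CPAT coding probability is deposited as a fraction and the CNCI, PLEK, Fickett and hexamer values as a score that was not analysed. Target symbols came from the hosts that the authors name for circRNAs. Columns of the authors' own comparisons (fold changes, p-values and FDR of circRNAs, and lists of differentially expressed RNAs) were not used.

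FPKM was recovered as 2 to the power of the value, minus 1. The files used hold no counts, so the counting error is unknown, and no interval or floor is given. Clean reads were at hand only as the paper's totals per age group, with more for the young group. Of the member values, 94 to 153 per library were listed at 0. The members and gene lists were chosen with earlier results of these data known.

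Linear models were fitted in R 4.3.3 by limma 3.58.1, with moderation along a trend (eBayes), over all 9155 lncRNAs with a mean of at least 0.1 FPKM, on log2(FPKM + 0.1), over all 44011 transcripts with a mean of at least 0.5 FPKM, on log2(FPKM + 1), and over 1237 log2 ratios. P-values were Benjamini-Hochberg adjusted with a threshold of 0.05. Values per library were compared by two-sided exact permutation tests with scipy 1.17.1. On simulated data over 9155 lncRNAs, with 50 per size, 27 and 36 were called of those raised and lowered by a log2 of 3. Of those raised and lowered by 6, 47 and 44 were called, with 7 of 8955 unchanged ones. How often lncRNAs of low level, or with only traces or 0 at 1 age, are called was not tested.

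Members named in the text were, in each class, the 10 higher and the 10 lower called members with the largest fold change and no overlap, the 6 highest in mean FPKM, the longest and the shortest, and those paired with listed genes. Others named were chosen after their values were seen. Alternatives changed the pseudocount, the filter, the scaling and the variance model, took the replicate number as a block and left out each library in turn.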

Additional observations from a re-analysis of the deposited data

How the results depend on the processing

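Replicate numbers of the labels did not pair the libraries, since the deviations of adult and young libraries of the same number correlated at -0.0195, 0.0071 and -0.0215, and no library correlated best with its own number. With the replicate block there were 2 bidirectional lncRNAs higher (1 without it), 2 targets of antisense lncRNAs higher and 3 lower (27 and 13), 1 target of bidirectional lncRNAs higher and 0 lower (3 and 2), and called ratios of 0 higher and 6 lower for antisense (14 and 26) and 0 higher and 1 lower for bidirectional lncRNAs (2 and 5). At an unadjusted p under 0.05 by limma, those counts of 0 were 8 targets and 43 and 12 ratios, in that order. Antisense lncRNAs higher in adults, 10 as reported, numbered 1 with a pseudocount of 0.01, without a filter and without a trend, 56 with the same total over all transcripts, 6 after quantile normalization and 5 when summed per target, and those lower, 12 as reported, 23 after quantile normalization. Bidirectional lncRNAs higher (1) numbered 2 with a pseudocount of 1 and with robust moderation, 3 without a trend and when above 0 in at least 3 libraries, and 10 with the same total, and those lower (2) numbered 1 without a trend. Ratios of antisense lncRNAs called higher numbered 8 with a pseudocount of 0.01, and of bidirectional lncRNAs 1 with a pseudocount of 1. The adult minus young difference of summed FPKM moved to 4077 for antisense lncRNAs (-601 as reported) and to 13.6 for bidirectional ones (-284) with the same total. Without the highest member the bidirectional difference was 34.7 FPKM and 0.0844 percentage points of all lncRNA FPKM (-0.589). The number of bidirectional members differed by 1 when counted at 1 FPKM or more and by -2 when counted above 0, as reported. The class difference of log2 medians was 0.47 with the filter, which took out antisense lncRNAs only. With the same total, TCONS_00324029 moved to 0.39, and after quantile normalization it moved to 0.76, TCONS_00662522 to -0.26 and TCONS_00439873 to -0.014. TCONS_00662522 was at -0.65 without adult library 1, and between -0.70 (without young library 1) and 0.69 (without young library 3) over all such fits. The causes of these changes were not tested. Leaving out each library gave 0 to 1 antisense lncRNAs higher and 0 to 3 lower, 0 bidirectional higher and 0 to 1 lower, targets of antisense lncRNAs of 0 to 23 higher and 1 to 11 lower, targets of bidirectional lncRNAs of 1 to 3 higher and 0 to 2 lower, and ratios of 1 to 6 higher and 11 to 25 lower for antisense and of 0 higher and 1 to 4 lower for bidirectional lncRNAs. The same fits gave differences of -40.2 to -29.2 antisense members above 0, -1110 to -150 summed FPKM, -3.79 to 1.25 percentage points and 0.06 to 0.61 FPKM at the median, and for bidirectional lncRNAs -3.33 to -0.333 members, -326 to -246 FPKM, -0.804 to -0.471 percentage points and 0.217 to 0.516 FPKM at the median. The share of antisense lncRNAs turned higher in adults only without young library 3. The class difference was 0.33 to 0.48 in log2 medians and 0.189 to 1.80 percentage points above 0. FPKM without counts limits what low values can show.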
